A study of Sus scrofa with 6 samples.

Results

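Genes of calcium release and uptake by the sarcoplasmic reticulum were examined in longissimus dorsi, a back muscle, of Wannanhua pigs, a local Chinese breed, and Yorkshire pigs, a lean commercial breed. The group was listed by gene symbol, and it was chosen with earlier results of these data known. Of 10 listed genes, 5 had a row under a matched symbol in the deposited table of 17627 genes: CASQ1 (ENSSSCG00000006390), ATP2A1 (ENSSSCG00000007805), SLN (ENSSSCG00000029651), JPH1 (ENSSSCG00000006174) and CACNA1S (ENSSSCG00000024784). CASQ2, ATP2A2, RYR1, JPH2 and PLN were not analysed here. The slow isoforms of calsequestrin and of the calcium pump were therefore not set against the fast ones.

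There were 3 libraries from Wannanhua pigs and 3 from Yorkshire pigs, numbered 1 to 3 within each breed. All were labelled as 5 months of age, and no treatment is named for either breed. The design text of the series speaks of piglets instead. The labels do not state that the libraries came from separate animals, so p-values measure only the spread between these libraries, which may be technical.

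In a muscle fibre the sarcoplasmic reticulum stores calcium. An action potential that runs down the T-tubules, inward folds of the cell membrane, is sensed by the dihydropyridine receptor, which opens the ryanodine receptor of the reticulum, and the released calcium starts contraction. Calsequestrin holds calcium inside the store, junctophilins tie the T-tubule to the reticulum at the triad, and the SERCA pumps return calcium to the store. Fast fibres carry the pump SERCA1, made from ATP2A1, and mostly the calsequestrin made from CASQ1. Slow fibres use the pump made from ATP2A2 and also carry the calsequestrin made from CASQ2.

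Levels are given in FPKM, fragments scaled to transcript length and to library size. Libraries held 16385602 to 21056699 recovered reads. The member with the fewest reads in a library had 7751, a counting error of 1.14%, so counting error was small for the 5 genes. It was larger for genes at low levels: 21.3% at the 22 reads of MCUB in its lowest library, 19.6% at the 26 of ATP2A3 and 31.6% at the 10 of RYR2. Fold changes are log2 differences of FPKM + 1, Wannanhua minus Yorkshire, from a limma fit over all 11791 tested genes, with Benjamini-Hochberg adjustment over them and a threshold of 0.05. All 5 genes passed the filter on low values. The median log2 fold change of all tested genes was 0.12, and 0.00 after quantile normalization, so fold changes are read relative to these medians.

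CASQ1, the main calcium store protein of fast fibres, was the member that was lower in Wannanhua muscle past the threshold, and each of the other 4 had a negative log2 fold change that did not pass. The median log2 fold change of the 5 was -1.07, against 0.12 for all tested genes. The sign was negative for all 5 genes under all 18 alternatives tried, 90 of 90 values. Other filters, other limma settings and a term for library number cannot alter a member's fold change, and every alternative reuses these libraries. The 90 values are therefore not independent support. Over all tested genes 3.05% passed in either direction and 1.29% were lower in Wannanhua past the threshold, beside 1 of 5 here. That is 208 genes higher and 152 lower; quantile normalization gave 138 higher and 200 lower, and median centring 131 higher and 236 lower. In 3 of the 5, CASQ1, SLN and CACNA1S, every Wannanhua library lay below every Yorkshire library, and 9.63% of all tested genes showed that order. In bulk muscle, fewer fibres of a type and less RNA per fibre cannot be told apart.

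**Figure D1:**
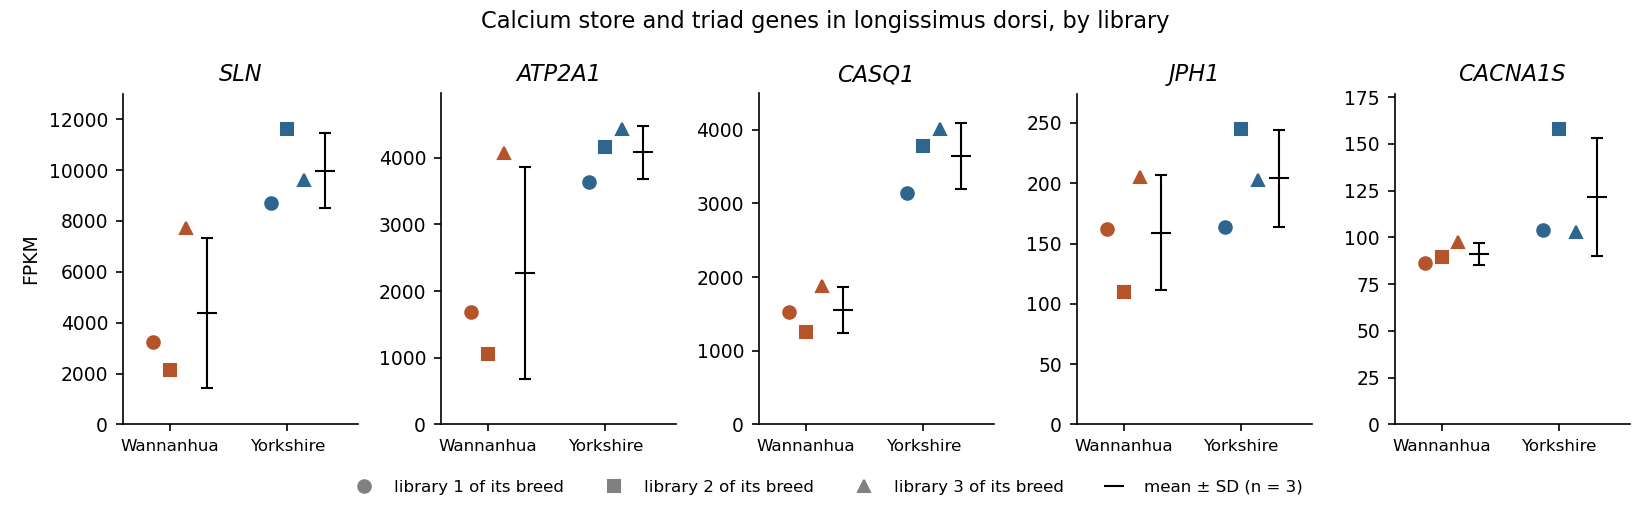
FPKM of the 5 genes in each library, with Wannanhua left of Yorkshire in each panel, 1 symbol per library, and the mean ± SD (n = 3) beside the points; axes start at 0. For ATP2A1 and SLN, Wannanhua 3 stands at 4074 and 7721 FPKM, well above Wannanhua 1 and 2, while its CASQ1 value of 1876 FPKM stays near the other Wannanhua libraries.

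Within the store, CASQ1 stood at 1525, 1257 and 1876 FPKM in Wannanhua 1, 2 and 3, against 3147, 3780 and 4011 FPKM in Yorkshire 1, 2 and 3. The breeds did not overlap, and the highest Wannanhua library was 51.4% of the Yorkshire mean. CASQ1 averaged 1552 ± 310 FPKM in Wannanhua and 3646 ± 447 FPKM in Yorkshire (SD, n = 3), and was 2.35-fold higher in Yorkshire by these means. In the fit over all genes its log2 difference was -1.24 ± 0.24 (SE; limma adjusted p = 0.0435). The call was close to the threshold: it was kept without Wannanhua 3 (adjusted p = 0.0245) and lost without Wannanhua 1 or 2 (0.155 and 0.156) and without Yorkshire 1, 2 or 3 (0.0605, 0.119 and 0.176). Its log2 fold change lay between -1.39 and -1.10 in these 6 fits. Quantile normalization gave -0.99 (limma adjusted p = 0.115), and edgeR on recovered reads gave -1.30 (adjusted p = 0.0611), where 1.55% of tested genes were lower in Wannanhua past the threshold. DESeq2 on the same reads kept the call (-1.31, adjusted p = 1.73e-05).

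On the uptake side, ATP2A1, the calcium pump of fast fibres, stood at 1684, 1058 and 4074 FPKM in Wannanhua 1, 2 and 3, against 3643, 4165 and 4431 FPKM in Yorkshire 1, 2 and 3. The breeds overlapped because of Wannanhua 3, which was at 99.9% of the Yorkshire mean, whereas Wannanhua 1 and 2 were at 41.3% and 25.9% of it. The gene averaged 2272 ± 1592 FPKM in Wannanhua and 4079 ± 401 FPKM in Yorkshire (SD, n = 3 each). The limma log2 fold change of -1.07 ± 0.46 (SE) did not pass (limma adjusted p = 0.231). Without Wannanhua 3 it was -1.61 and passed (adjusted p = 0.0269), in a fit where 2.04% of tested genes were lower in Wannanhua past the threshold. Without Wannanhua 2 it was -0.63 (adjusted p = 0.507). ATP2A1 and CASQ1 each have a close relative, ATP2A2 and CASQ2, and how reads shared with it were counted is not given in the sources, so their levels are uncertain to that extent.

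SLN, which encodes sarcolipin, a small membrane protein that binds SERCA pumps and restrains calcium uptake, had the highest level of the 5 genes. It stood at 3260, 2142 and 7721 FPKM in Wannanhua 1, 2 and 3, against 8706, 11617 and 9622 FPKM in Yorkshire 1, 2 and 3. The breeds did not overlap, but Wannanhua 3 lay nearer to Yorkshire 1 than to the other Wannanhua libraries. SLN averaged 4374 ± 2952 FPKM in Wannanhua and 9982 ± 1488 FPKM in Yorkshire (SD, n = 3 each). The limma log2 fold change of -1.39 ± 0.46 (SE) was the largest of the 5 in size and did not pass (limma adjusted p = 0.137). Without Wannanhua 3 it was -1.91 and passed (adjusted p = 0.0192). DESeq2 on recovered reads also called SLN, at -1.31 (adjusted p = 0.0248), in a test that put 4.22% of genes lower in Wannanhua past the threshold. SLN ranked between 17 and 46 among all genes of a library by FPKM.

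At the triad, CACNA1S, the voltage-sensing subunit of the skeletal muscle dihydropyridine receptor, stood at 86.5, 89.5 and 97.7 FPKM in Wannanhua 1, 2 and 3, against 104, 158 and 103 FPKM in Yorkshire 1, 2 and 3. The breeds did not overlap, with a narrow gap between Wannanhua 3 and Yorkshire 3, and Yorkshire 2 stood apart above the rest. CACNA1S averaged 91.2 ± 5.78 FPKM in Wannanhua and 122 ± 31.4 FPKM in Yorkshire (SD, n = 3 each). The difference by limma, -0.38 on the log2 scale with an SE of 0.22, did not pass (adjusted p = 0.339). Without Yorkshire 2 its log2 fold change was -0.18.

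JPH1, the junctophilin that predominates in skeletal muscle, stood at 162, 110 and 205 FPKM in Wannanhua 1, 2 and 3, against 164, 245 and 203 FPKM in Yorkshire 1, 2 and 3. The breeds overlapped, and Wannanhua 2 was the lowest of the 6 libraries. JPH1 averaged 159 ± 47.6 FPKM in Wannanhua and 204 ± 40.5 FPKM in Yorkshire (SD, n = 3 each). The difference by limma, -0.38 on the log2 scale with an SE of 0.27, did not pass (adjusted p = 0.448). It was -0.14 without Wannanhua 2 and -0.24 without Yorkshire 2.

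**Figure D2:**
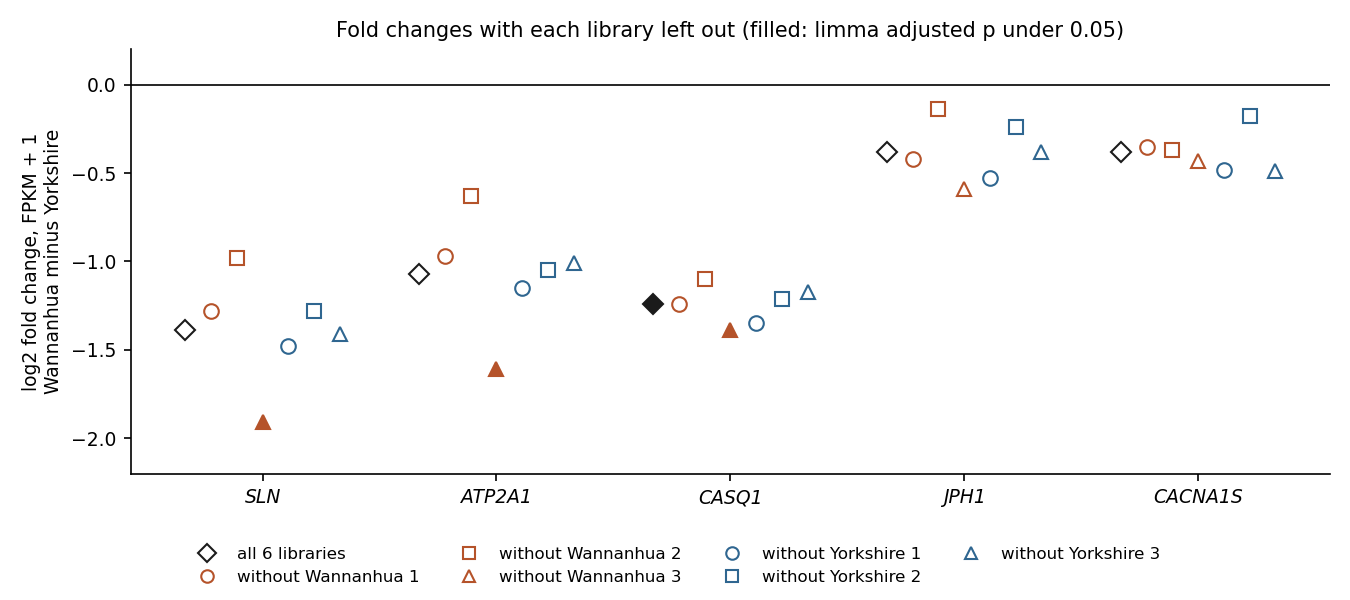
Log2 fold changes (FPKM + 1, Wannanhua minus Yorkshire) of the 5 genes with all 6 libraries and with each library left out in turn; filled symbols have a limma adjusted p under 0.05. SLN and ATP2A1 have a filled symbol where Wannanhua 3 is left out, and CASQ1 has one there and with all 6 libraries.

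By level per length, the order of the 5 genes was SLN, ATP2A1, CASQ1, JPH1 and CACNA1S in both breeds. SLN was above ATP2A1 in 6 of 6 libraries, by 1.90 to 2.79-fold. ATP2A1 was above CASQ1 in 5 of 6 libraries, by a margin narrow and even in Yorkshire, and below it in Wannanhua 2, with ratios from 0.842 to 2.17. In Wannanhua these neighbours did not differ beyond their spread. CASQ1 was above JPH1 by 9.14 to 19.7-fold, and JPH1 above CACNA1S by 1.23 to 2.10-fold, each in 6 of 6 libraries. Together the 5 genes took 1.28%, 0.882% and 2.12% of recovered reads in Wannanhua 1, 2 and 3, against 2.25%, 2.99% and 2.71% in Yorkshire 1, 2 and 3. Some abundant genes are listed at 0 in some libraries, such as ACTA1 in Wannanhua 1 and Yorkshire 2 and COX1 in Wannanhua 1 and 2. Their reads are missing from those totals, so these shares compare only roughly between libraries.

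Ratios between genes inside a library do not depend on how that library was scaled, and are given here as a description, since 3 libraries against 3 cannot reach the threshold. The ratio of CASQ1 to JPH1 was 9.39, 11.4 and 9.14 in Wannanhua 1, 2 and 3, against 19.2, 15.4 and 19.7 in Yorkshire 1, 2 and 3. The ratio of CASQ1 to CACNA1S was 17.6, 14.0 and 19.2 in Wannanhua, against 30.2, 23.9 and 39.0 in Yorkshire. In both ratios the breeds did not overlap. The difference in log2 ratio was -0.86 for each (exact two-sided permutation p = 0.1 for each, the smallest that 3 against 3 allows).

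TRDN, which encodes triadin, the protein that anchors calsequestrin to the ryanodine receptor, was chosen with its values known. It stood at 291, 270 and 300 FPKM in Wannanhua 1, 2 and 3, against 268, 342 and 339 FPKM in Yorkshire 1, 2 and 3. Its breeds overlapped (difference of -0.13 on the log2 scale, SE 0.18; adjusted p = 0.709 by limma). The ratio of CASQ1 to TRDN was 5.23, 4.66 and 6.25 in Wannanhua, against 11.7, 11 and 11.8 in Yorkshire. This ratio did not overlap between the breeds and was nearly constant within Yorkshire (log2 difference -1.11, exact two-sided permutation p = 0.1, the smallest possible).

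The ratio of the pump inhibitor SLN to the pump ATP2A1 was 1.94, 2.02 and 1.90 in Wannanhua 1, 2 and 3, against 2.39, 2.79 and 2.17 in Yorkshire 1, 2 and 3. It did not overlap between breeds, and it was nearly the same in all 3 Wannanhua libraries although SLN spread 3.6-fold and ATP2A1 3.85-fold among them (log2 difference -0.32, exact two-sided permutation p = 0.1). The ratio of CASQ1 to ATP2A1 was 0.905, 1.19 and 0.460 in Wannanhua, against 0.864, 0.908 and 0.905 in Yorkshire. Here the breeds overlapped, and Wannanhua 3 was the lowest of the 6 libraries (log2 difference -0.17, exact p = 0.9). The sign of this difference turned to 0.22 without Wannanhua 3. The ratio of SLN to JPH1 was 20.1, 19.5 and 37.6 in Wannanhua, against 53.1, 47.4 and 47.3 in Yorkshire, without overlap (log2 difference -1.01, exact p = 0.1). Of the 10 ratios among the 5 genes, 4 did not overlap between breeds. The share of such ratios over gene pairs in general was not computed. Those of CASQ1 to SLN, SLN to CACNA1S, ATP2A1 to JPH1, ATP2A1 to CACNA1S and JPH1 to CACNA1S overlapped, like that of CASQ1 to ATP2A1. The smallest p adjusted over the 10 ratios, which share genes and are not independent, was 0.25. All these ratios were added after the data were seen.

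**Figure D3:**
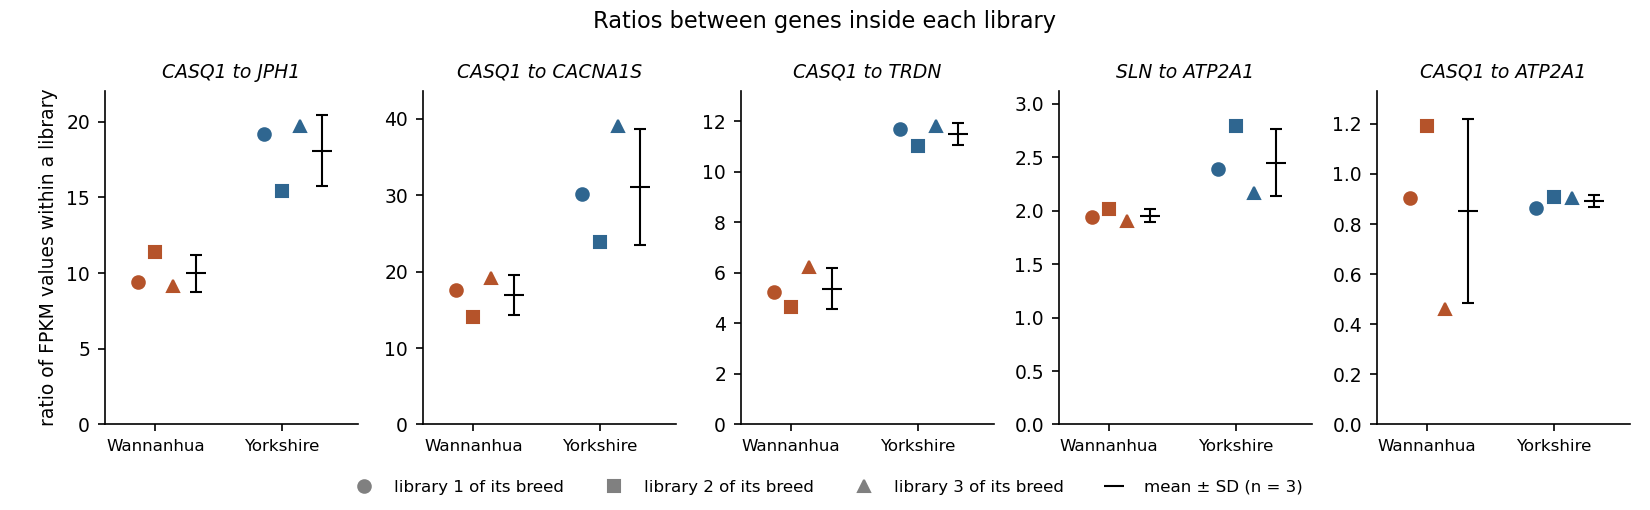
Ratios of FPKM values inside each library, with Wannanhua left of Yorkshire in each panel, 1 symbol per library, and the mean ± SD (n = 3) beside the points; axes start at 0. The ratios of CASQ1 to JPH1, CACNA1S and TRDN do not overlap between breeds, whereas that of CASQ1 to ATP2A1 does, with Wannanhua 3 at 0.460.

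Fibre-type markers differed between libraries beside these genes. Of the fast-fibre list, 4 of 8 markers had a row, and their summed level was 9294 to 30658 FPKM in Wannanhua and 45489 to 47035 FPKM in Yorkshire. Of the slow-fibre list, 4 of 7 had a row, with sums of 10108 to 41054 FPKM in Wannanhua and 5577 to 17014 FPKM in Yorkshire. None of these 8 was at 0 in every library, and none passed the threshold in limma with all 6 libraries. At an unadjusted p under 0.05 stood 1 of the 4 slow and 3 of the 4 fast markers, against 22.1% of all tested genes. EdgeR called 0 of the 8, where it called 3.05% of all genes. DESeq2 called 1 slow and 3 fast, where it called 8.43% of all genes. Limma without Wannanhua 3 called 1 slow and 2 fast, where it called 4.37% of all genes. Wannanhua 3 had the highest fast sum, 30658 FPKM, and the lowest slow sum, 10108 FPKM, of its breed.

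In Wannanhua 3 the fast troponin C gene TNNC2 was at 77.8% of the Yorkshire mean, the fast myosin light chain gene MYL1 at 51.4% and the fast myosin-binding protein gene MYBPC2 at 67.0%. In the same library SLN was at 77.3%, CASQ1 at 51.4% and ATP2A1 at 99.9%, so CASQ1 stood with the lowest of the fast markers and ATP2A1 above them all. In Wannanhua 1 and 2 the same fast markers were at 15.6% to 41.1% of the Yorkshire mean, and SLN, ATP2A1 and CASQ1 at 21.5% to 41.8%. JPH1, CACNA1S and TRDN lay between 54.0% and 92.1% in Wannanhua 1 and 2. Without Wannanhua 3, the log2 fold changes of CASQ1, ATP2A1 and SLN were -1.39, -1.61 and -1.91. With all 6 libraries they were -1.24, -1.07 and -1.39. The part of fibre-type make-up in the values of CASQ1, ATP2A1 and SLN was not tested.

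**Figure D4:**
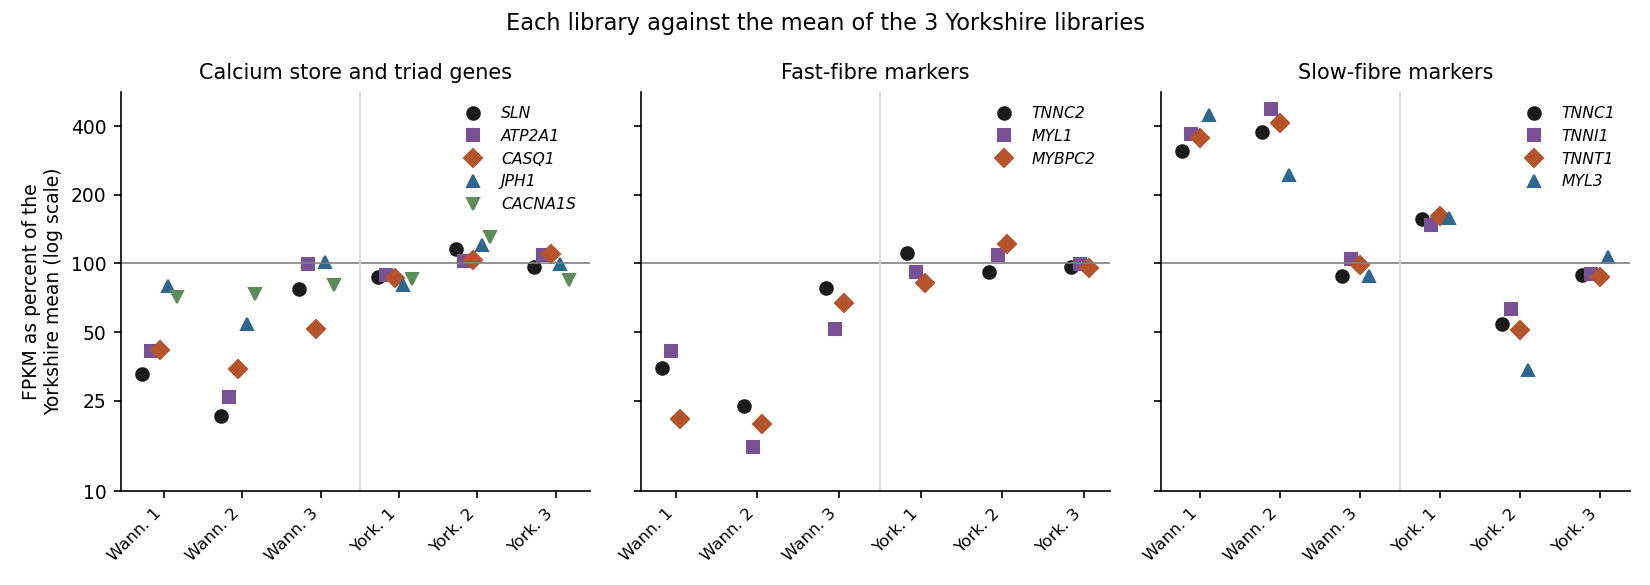
Level of each gene in each library as a percent of the Yorkshire mean, on a log axis, for the 5 calcium genes, 3 of the 4 measured fast-fibre markers and the 4 measured slow-fibre markers (PVALB, near 0 in Wannanhua 1, is not drawn). In Wannanhua 3 the slow markers sit at 87.8% to 105% of the Yorkshire mean. The fast markers drawn sit at 51.4% to 77.8% there, and CASQ1 sits at 51.4%.

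Troponin C senses the released calcium in both fibre types. The ratio of its slow gene TNNC1 to its fast gene TNNC2 was 1.81, 3.22 and 0.228 in Wannanhua 1, 2 and 3, against 0.285, 0.119 and 0.186 in Yorkshire 1, 2 and 3, so Wannanhua 3 stood with the Yorkshire libraries.

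Of markers of other cells, those of smooth muscle summed to 4624 to 5916 FPKM in Wannanhua and 2330 to 3046 FPKM in Yorkshire over 8 of 9 genes, a sum made up mostly of DES, which skeletal fibres also express. The fibroblast markers summed to 263 to 346 FPKM in Wannanhua and 304 to 739 FPKM in Yorkshire over 4 of 5 genes. Heart muscle markers summed to 0.839 to 1.94 FPKM in Wannanhua and 2.07 to 14.8 FPKM in Yorkshire over 2 of 6 genes. This sum was nearly all TNNT2, at 2.05, 2.08 and 14.8 FPKM in Yorkshire 1, 2 and 3 (limma adjusted p = 0.276). RYR2 and ATP2A3 are also given with their values known. RYR2, the ryanodine receptor of the heart, was at 0.133 FPKM or less in every library. ATP2A3, the pump of non-muscle cells, stood at 1.10, 1.08 and 0.826 FPKM in Wannanhua 1, 2 and 3, against 1.92, 1.07 and 1.49 FPKM in Yorkshire 1, 2 and 3, far below ATP2A1 in each library.

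Around the 5 genes, 98 other genes of muscle calcium handling were listed, of which 77 had a row and 69 were tested. Limma called 2 lower and 0 higher in Wannanhua, or 2.90% of the 69, close to the 3.05% of all tested genes. At an unadjusted p under 0.05 stood 28 of them, or 40.6%, against 22.1% of all tested genes. EdgeR called 6, where it called 3.05% of all genes, and DESeq2 called 18, where it called 8.43%. Without Wannanhua 3 limma called 6, where it called 4.37% of all genes, and HOMER1 and MCUB were not among them. Their median log2 fold change was -0.03. The genes called by limma were HOMER1 at the triad and MCUB in mitochondria.

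Among 17 tested genes of the triad and release complex, with a median log2 fold change of -0.13, limma called 1, lower in Wannanhua. Over all tested genes 1.29% were lower past the threshold. At an unadjusted p under 0.05 stood 9 of the 17, against 22.1% of all tested genes. EdgeR called 1 and DESeq2 called 6, where they called 3.05% and 8.43% of all genes. HOMER1, a scaffold protein that binds ryanodine receptors, stood at 35.3, 34.3 and 38.8 FPKM in Wannanhua 1, 2 and 3, against 62.8, 99.8 and 130 FPKM in Yorkshire 1, 2 and 3. The breeds did not overlap, and the Wannanhua values were close together while the Yorkshire values spread 2.07-fold. Its log2 difference was -1.35 ± 0.27 (SE; limma adjusted p = 0.0473), and edgeR called it too (adjusted p = 0.0184). It was kept without Yorkshire 1 (adjusted p = 0.0327) and lost without Wannanhua 1, 2 or 3 (0.159, 0.168 and 0.0612) and without Yorkshire 2 or 3 (0.121 and 0.156).

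The other triad genes did not pass in limma with all 6 libraries, and those that follow were chosen after their values were seen. HOMER2, a scaffold of the same family, stood at 214, 196 and 58.3 FPKM in Wannanhua 1, 2 and 3, against 73.6, 33.5 and 47.0 FPKM in Yorkshire 1, 2 and 3, with overlap (difference of 1.45 on the log2 scale, SE 0.52; adjusted p = 0.166 by limma). HOMER1 and HOMER2 thus had log2 fold changes of opposite sign. BIN1, which shapes T-tubules, averaged 483 ± 31.4 FPKM in Wannanhua and 772 ± 73.6 FPKM in Yorkshire (SD, n = 3; limma adjusted p = 0.0946). CACNB1 and CACNG1, the beta and gamma subunits of the dihydropyridine receptor, had log2 fold changes of -0.53 ± 0.17 and -0.67 ± 0.19 (SE; limma adjusted p = 0.130 and 0.0986). S100A1, a calcium-binding protein known to bind the ryanodine receptor, stood at 412, 1037 and 151 FPKM in Wannanhua 1, 2 and 3, against 127, 77.8 and 160 FPKM in Yorkshire 1, 2 and 3 (limma adjusted p = 0.170). DESeq2 called HOMER2 and S100A1 higher (adjusted p = 0.0265 and 0.00327) and BIN1, CACNB1 and CACNG1 lower in Wannanhua (0.0213, 0.0129 and 0.0109). Limma without Wannanhua 3 also called HOMER2 and S100A1 (adjusted p = 0.0255 and 0.0389).

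Of 12 tested genes of the store and its counter-ion flow, with a median of -0.08, limma and edgeR each called 0, and 5 had an unadjusted p under 0.05 (22.1% of all tested genes did). DESeq2 called ANK1, RCN2 and TMEM109 lower, where it called 8.43% of all genes. Limma without Wannanhua 3 called TMEM109 lower (adjusted p = 0.0394), where it called 4.37% of all genes. The most abundant were HRC, a calcium-binding protein of the store, and TMEM38A, a potassium channel of the reticulum. HRC averaged 187 ± 30.6 FPKM in Wannanhua and 201 ± 15.5 FPKM in Yorkshire, and TMEM38A 325 ± 81.6 FPKM in Wannanhua and 346 ± 23.3 FPKM in Yorkshire (SD, n = 3; limma adjusted p = 0.764 and 0.794). ANK1, whose small muscle form ties the reticulum to the sarcomere, was named after its values were seen. It averaged 98.5 ± 20.4 FPKM in Wannanhua and 187 ± 26.7 FPKM in Yorkshire (SD, n = 3; limma adjusted p = 0.0706; DESeq2 adjusted p = 0.00473), without overlap.

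Among 9 tested genes of mitochondrial calcium uptake, 7 had a positive log2 fold change. Their median was 0.23, against 0.12 for all tested genes. Limma called 1, lower in Wannanhua, where 1.29% of all tested genes were lower past the threshold. At an unadjusted p under 0.05 stood 6 of the 9, against 22.1% of all tested genes. EdgeR called 1 and DESeq2 called 3, where they called 3.05% and 8.43% of all genes. MCUB, a subunit that dampens the calcium uniporter, stood at 0.956, 1.30 and 1.23 FPKM in Wannanhua 1, 2 and 3, against 3.35, 2.70 and 3.74 FPKM in Yorkshire 1, 2 and 3. The breeds did not overlap at these low levels (difference of -0.98 on the log2 scale, SE 0.18; adjusted p = 0.0412 by limma). With edgeR the log2 difference of MCUB was -1.67 (adjusted p = 0.0265), and with limma it was -1.41 at a pseudocount of 0.1 and -0.42 at a pseudocount of 5. Without a filter on low values the call was lost (adjusted p = 0.0671). The MCUB call was lost without each of Wannanhua 1, 2 and 3 (adjusted p = 0.152, 0.131 and 0.0552) and each of Yorkshire 1, 2 and 3 (0.0684, 0.0876 and 0.158). MCU, the pore of the uniporter, and its gatekeepers MICU2 and MICU3 are named after their values were seen. MCU stood at 106, 94.5 and 73.2 FPKM in Wannanhua 1, 2 and 3, against 28.3, 63.3 and 54.5 FPKM in Yorkshire 1, 2 and 3, without overlap (limma adjusted p = 0.139). MICU2 and MICU3 had log2 fold changes of 0.85 ± 0.19 and 0.91 ± 0.21 (SE; limma adjusted p = 0.0611 and 0.0679). DESeq2 called MICU3 higher and SMDT1, a regulator of the uniporter, lower (adjusted p = 0.0202 and 0.0254), and limma at a minimum of 5 FPKM called MICU2 higher (0.0492).

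Of 12 tested genes of store-operated entry and surface transport, with a median of 0.24, limma called 0. At an unadjusted p under 0.05 stood 3 of the 12, against 22.1% of all tested genes. EdgeR and DESeq2 each called ATP2B2 lower and ATP2B3 higher, both surface pump genes, where they called 3.05% and 8.43% of all genes. The most abundant were the surface pump gene ATP2B1 and the Golgi pump gene ATP2C1, with log2 fold changes of 0.55 ± 0.30 and -0.11 ± 0.21 (SE; limma adjusted p = 0.326 and 0.799). Of 15 tested genes of calcium-dependent signalling, with a median of -0.01, limma called 0. At an unadjusted p under 0.05 stood 4 of the 15, near the 22.1% of all tested genes. EdgeR called 2, CAMK2A lower and RCAN2 higher, and DESeq2 called these and CAMK2G, lower, against the same 3.05% and 8.43% of all genes. The most abundant were MYOZ1, which binds calcineurin at the Z-disc of fast fibres, and PPP3CB, a catalytic subunit of calcineurin. MYOZ1 averaged 3325 ± 376 FPKM in Wannanhua and 4273 ± 844 FPKM in Yorkshire, and PPP3CB 173 ± 33.4 FPKM in Wannanhua and 160 ± 8.12 FPKM in Yorkshire (SD, n = 3; limma adjusted p = 0.426 and 0.808). RCAN2, a regulator of calcineurin, was chosen with its values known. Its level was 95.4, 60.3 and 18.6 FPKM in Wannanhua 1, 2 and 3, against 8.72, 7.30 and 8.12 FPKM in Yorkshire 1, 2 and 3. Its breeds did not overlap (difference of 2.43 on the log2 scale, SE 0.52; adjusted p = 0.0558 by limma). RCAN2 was called higher in Wannanhua by edgeR (adjusted p = 0.041), by DESeq2 (4.81e-06), by limma at a minimum of 5 FPKM (0.047) and by limma without Wannanhua 3 (0.00398).

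Of 8 tested cytosolic calcium-binding genes, with a median of -0.55, limma and edgeR each called 0. At an unadjusted p under 0.05 stood 3 of the 8, against 22.1% of all tested genes. DESeq2 called TNNC2 lower and S100A1 higher (adjusted p = 0.0432 and 0.00327), and limma without Wannanhua 3 called both (0.0196 and 0.0389). These tests called 8.43% and 4.37% of all genes. The most abundant were TNNC2 and TNNC1, with log2 fold changes of -1.32 ± 0.44 and 1.25 ± 0.62 (SE; limma adjusted p = 0.138 and 0.280).

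**Figure D5:**
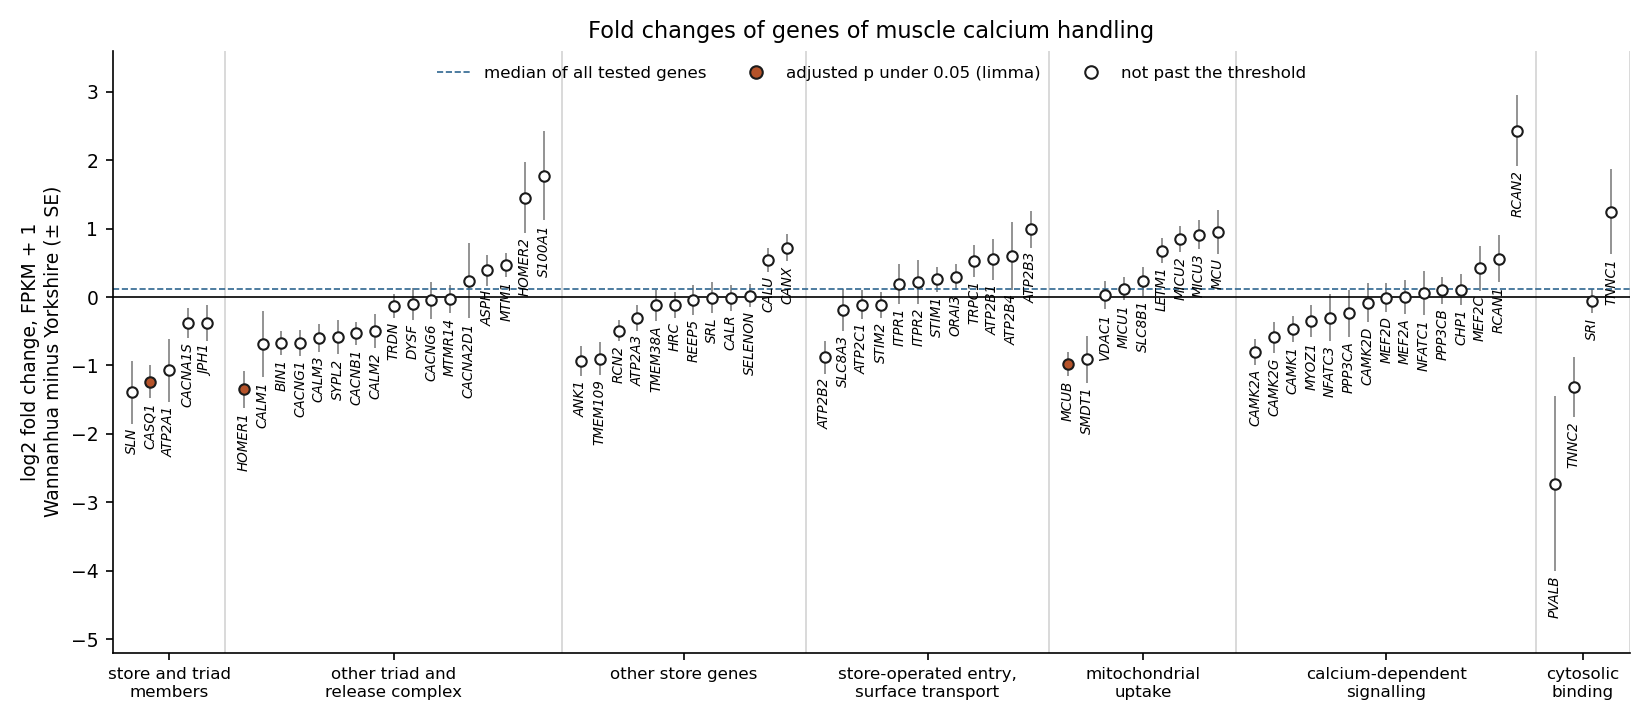
Log2 fold changes (FPKM + 1, Wannanhua minus Yorkshire, ± SE) of the 5 genes and the 69 other tested genes of muscle calcium handling, each drawn once in the first list that holds it; filled symbols have a limma adjusted p under 0.05. CASQ1, HOMER1 and MCUB are filled, all below 0, and the dashed line marks the median of all tested genes, 0.12.

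The tested genes with a symbol whose profile over the 6 libraries lay nearest to CASQ1 were CAPZB, which encodes a capping protein of actin filaments, UBE2D4, a ubiquitin-conjugating enzyme, and RAP1GDS1, an exchange factor of small GTPases. Likeness was the root mean square distance between log2(FPKM + 1) values centred over the libraries, 0.0831, 0.0880 and 0.11 for the 3 genes among 7238 compared. CAPZB stood at 86.3, 78.4 and 97.9 FPKM in Wannanhua 1, 2 and 3, against 188, 209 and 223 FPKM in Yorkshire 1, 2 and 3. As with CASQ1, Wannanhua 3 was the highest of its breed and still below every Yorkshire library, a likeness by which CAPZB was picked. The median distance of the compared genes from CASQ1 was 0.748. SLN lay at 0.402, with 245 of the 7238 genes nearer to CASQ1, ATP2A1 at 0.416 with 274 nearer, JPH1 at 0.455 with 382 nearer and CACNA1S at 0.493 with 568 nearer.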

How the data were processed

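Poly-A RNA of longissimus dorsi was made into paired-end libraries, and the kit named does not keep strand, per the labels' protocols. CASAVA 1.7, TopHat2 2.0.6 and pig build Sscrofa10.2 stand in the submitters' processing notes with no role. The sources used here do not name the read counter, the annotation or the treatment of reads shared by similar genes, so values of genes with close relatives, such as ATP2A1 and CASQ1, are uncertain to that extent. No sequence or coordinate of that build was used here.

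FPKM values were used as the authors deposited them. The authors' deposited count columns hold fractions and were treated as a signal: read numbers scaled by 1 factor per library. Dividing by that factor, found from the commonest low value, gave whole reads for 99.71% to 99.82% of nonzero values per library (tolerance 0.01 of a read or a relative 1e-05). Symbols matched 10384 of 17627 identifiers (58.9%).

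Breeds were compared with limma 3.58.1 (R 4.3.3) on log2(FPKM + 1), with breed as the only term and trend and robust settings. A gene entered with 1 FPKM or more in any 3 libraries; 7 abundant genes (a scaled count of 10000 or more in some library) listed at 0 in another library were left out as failed estimates. The pseudocount of 1 understates changes of low genes. The planned ratios of slow to fast isoforms had no value, as the slow isoforms were not analysed here, and ratios among the measured members, added after the data were seen, were tested by exact permutation in scipy 1.17.1. Alternatives were edgeR 4.0.16 and DESeq2 1.42.0 on recovered reads, quantile or median scaling, other filters and pseudocounts, the replicate block and each library left out. The fits were tested on simulated data.

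The members, gene lists and tests were chosen with earlier results of these data known. Named are all members, every other pathway gene past the threshold or, in a list with none, the 2 most abundant, and the 3 nearest profiles to CASQ1; all other genes named were chosen after their values were seen. Samples were grouped by breed label. No pair within a breed looked like 1 library deposited again (chi-square per degree of freedom of 79.8 or more).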

Additional observations from a re-analysis of the deposited data

How the results depend on the processing

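The planned ratios of CASQ2 to CASQ1 and of ATP2A2 to ATP2A1 were not run, since the slow isoforms were not analysed here. The count of 360 genes past the threshold, 208 higher and 152 lower in Wannanhua, became 69 without a filter, 205 with the replicate block and 1195 with DESeq2, and 11 to 504 with a library left out. Quantile normalization gave 138 higher and 200 lower, and median centring 131 higher and 236 lower. Of the 5 members, 2 were called by DESeq2 and 0 by edgeR with TMM or RLE scaling, without a filter, after quantile normalization and with the replicate block, and 0 to 3 with a library left out. CASQ1 lost its call at -1.31 with edgeR and RLE scaling, -1.30 with TMM, -1.24 without a filter and -1.24 with the replicate block (adjusted p = 0.0615, 0.0611, 0.0702 and 0.0743), and at -0.99 after quantile normalization. Leaving out libraries gave -1.39 to -1.10 for CASQ1, -1.61 to -0.63 for ATP2A1 and -1.91 to -0.98 for SLN, and DESeq2 gave -1.31 for SLN. The calls of HOMER1 and MCUB were lost without a filter and with the replicate block, and HOMER1 at a pseudocount of 0.1; MCUB ranged from -1.68 to -0.42 over scales and tests. The cause of these changes was not tested. Fits with 5 libraries have fewer degrees of freedom, yet their counts lay on both sides of 360, from 11 to 504. Differences in log2 ratio turned for CASQ1 to SLN (-0.12 to 0.52 with a library left out), CASQ1 to ATP2A1 (-0.47 to 0.22) and JPH1 to CACNA1S, which was 0.00 as reported, -0.06 on scaled counts and -0.15 to 0.23 with a library left out.

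Same-numbered libraries are not said to be paired, and their deviations from breed means correlated at 0.10, -0.01 and 0.11, so the replicate block is an alternative only; Wannanhua 2 correlated best with another number. With 3 libraries a breed, an exact test cannot go below 0.1.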
